A study of Mus musculus with 48 samples.

Results

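The tissue inhibitors of metalloproteinases (TIMPs) were read from RNA of 4 sorted cell types of the mouse neurovascular unit after ischemic stroke. The family was taken by gene name and comprised *Timp1*, *Timp2*, *Timp3* and *Timp4*, 4 of the 24973 genes measured. Male wild-type mice underwent transient occlusion of the right middle cerebral artery for 1 h and 23 h of reperfusion, and microglia (MG), astrocytes (AC), pericytes (PC) and endothelial cells (EC) were sorted from the ipsilateral, ischemic hemisphere and from the contralateral hemisphere of the same operated animals. Each of the 8 groups held 6 libraries, and each library came from a pool of 3 to 4 mice. Replicates 1 to 6 are such pools, and p-values measure the spread between them. The contralateral hemisphere served as control, so the controls carried the operation and a stroke in the other hemisphere and were no sham animals.

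TIMPs are small secreted proteins that bind the active site of matrix metalloproteinases and thereby restrain the breakdown of basement membrane and other extracellular matrix. TIMP1 is the member known for induction by cytokines and injury, TIMP2 takes part in the activation of pro-MMP2 by membrane-bound MMP14, TIMP3 is held in the matrix and also inhibits ADAM and ADAMTS proteases, and TIMP4 has a narrow tissue range that includes heart and brain. In stroke, metalloproteinases are known for opening the blood–brain barrier.

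Before the values, the state of the libraries bears on how far each can be read. Sample titles and column names of the deposited table disagree for 12 libraries, those of ipsilateral pericytes and microglia, whose titles carry the other cell type. Groups here follow the column names, under which 16 of 16 cell type markers were higher in each library of their own type than in any library of another. Reads on genes, estimated from the spacing of low values, ranged from 4900000 to 17100000 per library with a median of 11850000, and 3 reads corresponded to 2.0 to 7.09 normalized counts. Marker RNA of other cells was present. In endothelial cells of replicates 1 to 4 the summed microglial markers were at 1.45% to 3.44% (contralateral) and 2.39% to 17.7% (ipsilateral) of the median in microglia, against 0.0866% to 0.264% in replicates 5 and 6 of both hemispheres. Ipsilateral pericytes of replicates 1 to 4 held the most, 5.04% to 23.7% (contralateral 0.24% to 4.96%), and ipsilateral astrocytes held 2.13% to 8.88% (contralateral 0.591% to 6.3%), with at most 0.401% in replicates 5 and 6 of either type. The 4 smooth muscle markers summed to 305671 to 472420 normalized counts in contralateral and 140102 to 323604 in ipsilateral pericytes. The 4 pericyte markers summed to 44294 to 92716 and 34058 to 90625 in the same libraries. The 5 oligodendrocyte markers summed to 34808 to 383698 in the 12 astrocyte libraries. There the 4 astrocyte markers summed to 57129 to 114614 (contralateral) and 41095 to 121715 (ipsilateral). What part of the TIMP values came from smooth muscle or oligodendrocyte RNA was not tested. In bulk samples, fewer cells of a type and less RNA per cell cannot be told apart.

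In the deposited coordinates (GRCm38), *Timp1* (ENSMUSG00000001131) lies on chromosome X from 20870166 to 20874735, *Timp2* (ENSMUSG00000017466) on chromosome 11 from 118301069 to 118355506, *Timp3* (ENSMUSG00000020044) on chromosome 10 from 86300372 to 86349506 and *Timp4* (ENSMUSG00000030317) on chromosome 6 from 115241892 to 115252205. Except for *Timp2*, the genes lie within a synapsin gene on the opposite strand, *Timp1* in *Syn1*, *Timp4* in *Syn2* and *Timp3* in *Syn3*. In the GENCODE annotation, *Timp1* shares 0 exon bases with *Syn1*, *Timp4* 90 with *Syn2* and *Timp3* 1733 of its 8144 with *Syn3*. Reads that overlapped several genes were left out by the authors and the use of strand is not stated, so *Timp3* reads from the shared bases may be missing and reads of *Timp3* and *Syn3* cannot be told apart there. *Syn3* itself had group means of 0 to 26.2 normalized counts, against 454 to 42198 for *Timp3*.

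The start region of *Timp1* and that of *Timp4* are shown because these members had the largest stroke change and the strongest preference for astrocytes below. The lines named upstream hold the bases before the RefSeq start (build GRCm38.p6, 5′ to 3′ on the gene's strand), and the line named element holds 30 bases just after the start of *Timp1*. Capitals mark letters of the motifs searched, GGGCGG (Sp1) and TGAGTAA, a variant of the AP-1 site.
Timp1 upstream, chrX:20869916-20870165, plus strand: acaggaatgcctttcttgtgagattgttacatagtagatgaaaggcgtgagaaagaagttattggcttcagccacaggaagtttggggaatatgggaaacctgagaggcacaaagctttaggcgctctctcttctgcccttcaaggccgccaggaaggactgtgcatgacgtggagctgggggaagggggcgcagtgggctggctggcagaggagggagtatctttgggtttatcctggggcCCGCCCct
Timp1 element, chrX:20870184-20870213, plus strand: tgggtggaTGAGTAAtgcgtccaggaagcc
Timp4 upstream, chr6:115252206-115252455, minus strand: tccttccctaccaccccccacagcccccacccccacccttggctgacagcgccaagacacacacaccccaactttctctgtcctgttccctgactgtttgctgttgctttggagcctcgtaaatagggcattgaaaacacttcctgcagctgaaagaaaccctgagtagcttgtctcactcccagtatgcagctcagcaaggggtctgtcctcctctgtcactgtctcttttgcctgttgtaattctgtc
On either strand of 250 bases before and 50 after the start, GGGCGG was present in *Timp1*, *Timp2* and *Timp3*, as in 35.7% of the 32851 promoters of the table, and TGAGTAA in *Timp1*, as in 2.68%. TGANTCA (AP-1, 7.81% of promoters), TTCNNNGAA (STAT, 8.3%) and TATAAA (a core promoter box, 13.6%) had no match in the 4 windows. These are matches of letters and no measured sites.

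*Timp1*, the inducible member, was the only TIMP gene whose stroke change passed the test in any of the 4 cell types. In each of them, 6 of 6 replicate pairs had more *Timp1* on the ipsilateral side. *Timp3* was lower in 6 of 6 pairs in endothelial cells, pericytes and astrocytes, and *Timp4* in astrocytes, without passing the test. The share of all genes with 6 of 6 pairs in 1 direction was not computed, so these counts have no background. A gene was called when limma gave an adjusted p of at most 0.05, a change of at least 1.5-fold in either direction and, on 1 side or both, more than 10 normalized counts in each of 6 replicates. With 4 members tested per cell type, 0 were called in endothelial cells, where 0.491% of all genes tested were called, 0 in pericytes (all genes 1.02%), 1 in astrocytes (0.341%) and 1 in microglia (10.6%). That fit compared the hemispheres without pairing the replicates. With the replicate number as a block, *Timp1* was called in each cell type, as 1 of 4 members. All genes were then called at 0.551% (EC), 1.66% (PC), 1.59% (AC) and 11% (MG). The paper, using DESeq2, reported *Timp1* as upregulated in all 4 cell types. The block takes libraries with the same number as the hemispheres of the same pool of mice, which the study's pooling of both hemispheres implies but no label states.

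**Figure D1:**
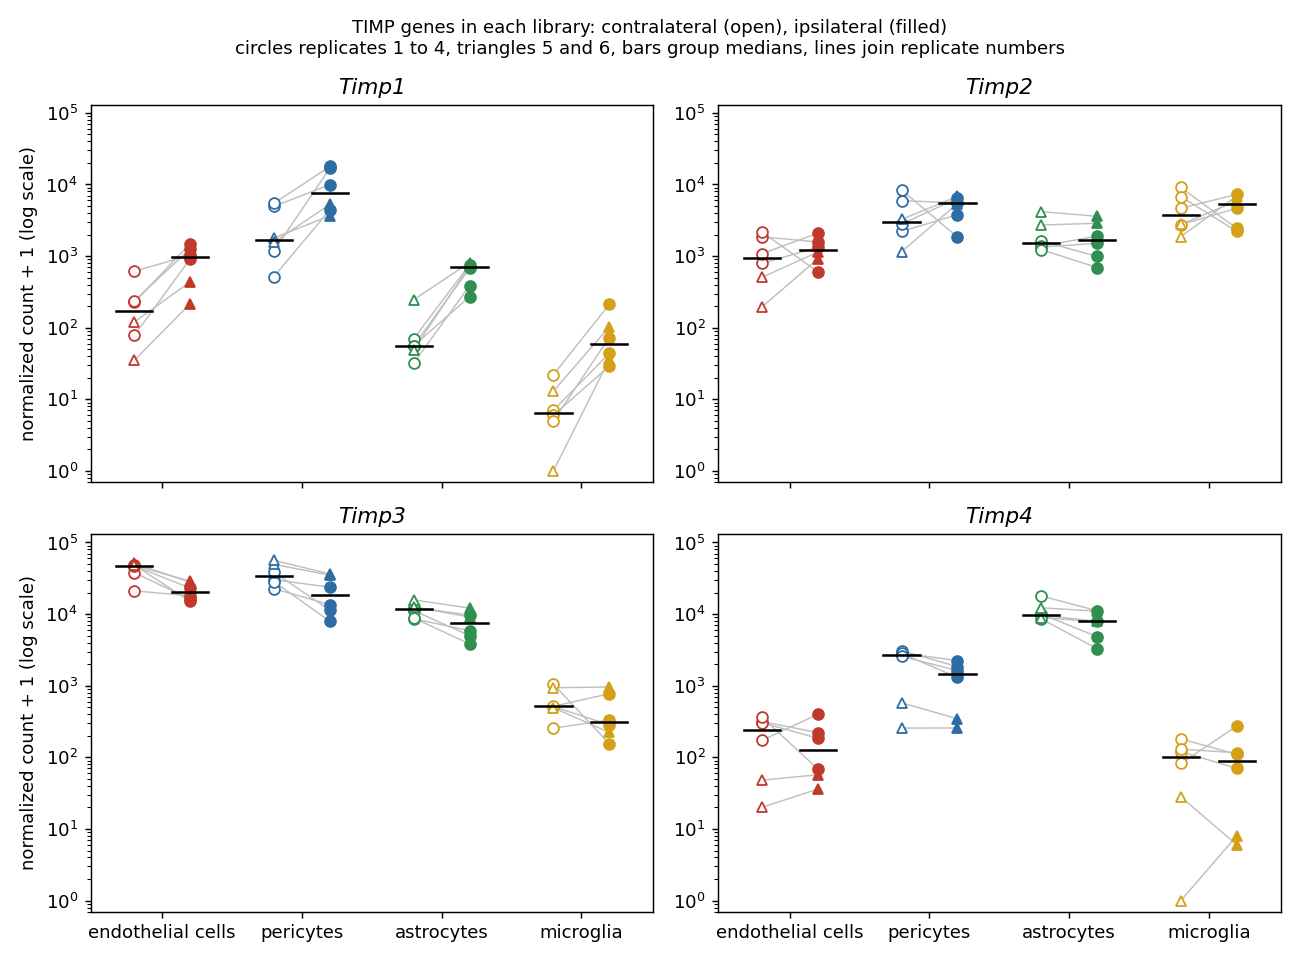
Normalized count + 1 on a log axis of each TIMP gene in each library, by cell type, with contralateral libraries open and ipsilateral ones filled; lines join libraries of the same replicate number, black bars are group medians, circles are replicates 1 to 4 and triangles 5 and 6. Each line of *Timp1* rises from left to right, and *Timp4* of endothelial cells, pericytes and microglia is lowest in the triangles.

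In astrocytes, *Timp1* was at 69, 55, 31, 55, 48 and 245 normalized counts in contralateral replicates 1 to 6 and at 758, 674, 384, 270, 729 and 809 in the ipsilateral ones. Every ipsilateral library lay above every contralateral one, with contralateral replicate 6 close to ipsilateral replicate 4. The log2 fold change was 3.08 (standard error, SE, 0.44, limma adjusted p = 0.00805, 0.00108 with the replicate block), from a mean of 83.8 ± 79.9 to 604 ± 222 (SD, n = 6). By p it ranked 12 among 15264 genes tested. The call was lost without replicate 1, 2 or 5 (limma adjusted p = 0.0549, 0.0731 and 0.0604), and in replicates 1 to 4 alone the log2 fold change was 3.22 (limma adjusted p = 0.00622).

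In microglia, *Timp1* was at 6, 21, 5, 4, 0 and 12 normalized counts in the contralateral libraries and at 43, 210, 28, 72, 35 and 102 in the ipsilateral ones. The groups did not overlap, and contralateral values were low, several of them near the worth of 3 reads. The log2 fold change of 3.37 (SE 0.75, limma adjusted p = 0.011, 0.00825 with the replicate block) depended on the pseudocount, being 4.04 with 0.1 and 2.16 with 10, both called. The ratio of the means was 10.2, from 8.0 ± 7.46 to 81.7 ± 68.6 (SD, n = 6). In replicates 1 to 4 alone the log2 fold change was 3.01 (limma adjusted p = 0.061), and the call was also lost without replicate 4 (limma adjusted p = 0.0525).

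In endothelial cells, *Timp1* was at 77, 612, 225, 236, 34 and 119 normalized counts in the contralateral and at 912, 1032, 1491, 1260, 216 and 435 in the ipsilateral libraries. The ipsilateral values of replicates 5 and 6 fell within the contralateral range, where replicate 2 was the highest. Without the block, the log2 fold change of 2.32 (SE 0.64, 95% confidence interval 0.96 to 3.68) did not pass the test (limma adjusted p = 0.138). With the replicate block the SE was 0.36 and the gene was called (limma adjusted p = 0.0343). The 6 pair differences ranged from 0.75 to 3.55 on the log2 scale, with 2.63 and 1.86 in replicates 5 and 6.

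Pericytes had the highest *Timp1* of the 4 cell types. It was at 517, 4960, 5459, 1191, 1795 and 1566 normalized counts in the contralateral and at 4429, 9897, 17831, 16819, 3649 and 5267 in the ipsilateral libraries. The groups overlapped, since contralateral replicates 2 and 3 were above several ipsilateral libraries. The log2 fold change was 2.07 (SE 0.57, 95% confidence interval 0.84 to 3.29, limma adjusted p = 0.103), and 0.0344 was the adjusted p with the replicate block. Pair differences were 1.0 to 3.82 on the log2 scale. Fibroblast markers summed to 3093 to 10694 normalized counts in contralateral and 5864 to 12234 in ipsilateral pericytes. Microglial markers summed to at most 11003 (median 1258) and at most 28388 (median 10670), and neutrophil markers to 0 to 1133 and 26 to 12454, the latter higher in 6 of 6 pairs. The part of these and of the smooth muscle markers given above in the *Timp1* difference was not tested.

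Groups that do not overlap were found for *Timp1* in astrocytes and microglia and for no other member. Over all genes tested, the hemispheres did not overlap for 2.06% (EC), 1.93% (PC), 0.898% (AC) and 8.56% (MG).

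Pericyte marker RNA was also present in libraries of the other cell types. For each library, the summed pericyte markers (*Pdgfrb*, *Des*, *Cd248*, *Cspg4*) were taken as a share of those in the pericyte library of the same number and hemisphere, and that share of the pericyte library's *Timp1* was computed. In ipsilateral astrocytes the share was 2.18% to 4.42% and gave 146 to 484 normalized counts, against 270 to 809 measured, with 4 of 6 libraries measured above it. In contralateral astrocytes it gave 19.8 to 298 against 31 to 245 measured, with 3 of 6 above. In microglia it gave 17.3 to 268 in ipsilateral and 1.96 to 35.6 in contralateral libraries, against 28 to 210 and 0 to 21 measured, again with 3 of 6 above in each hemisphere. In endothelial cells it gave 1.27% to 16.1% of the measured *Timp1* in ipsilateral and 1.88% to 22.1% in contralateral libraries. Measured endothelial *Timp1* was above the level given by pericyte markers in 12 of 12 libraries. The level given reached 542% of the measured *Timp1* in contralateral astrocytes and 403% in ipsilateral microglia. RNA carried over cannot exceed what was measured, so the marker share overstated it in such libraries. The level given is thus a rough yardstick and no estimate. What part of the stroke change of astrocytes and microglia pericyte RNA carries was not tested. The highest *Timp1* of any microglia library, 210, was below the lowest of ipsilateral endothelial cells, 216.

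**Figure D2:**
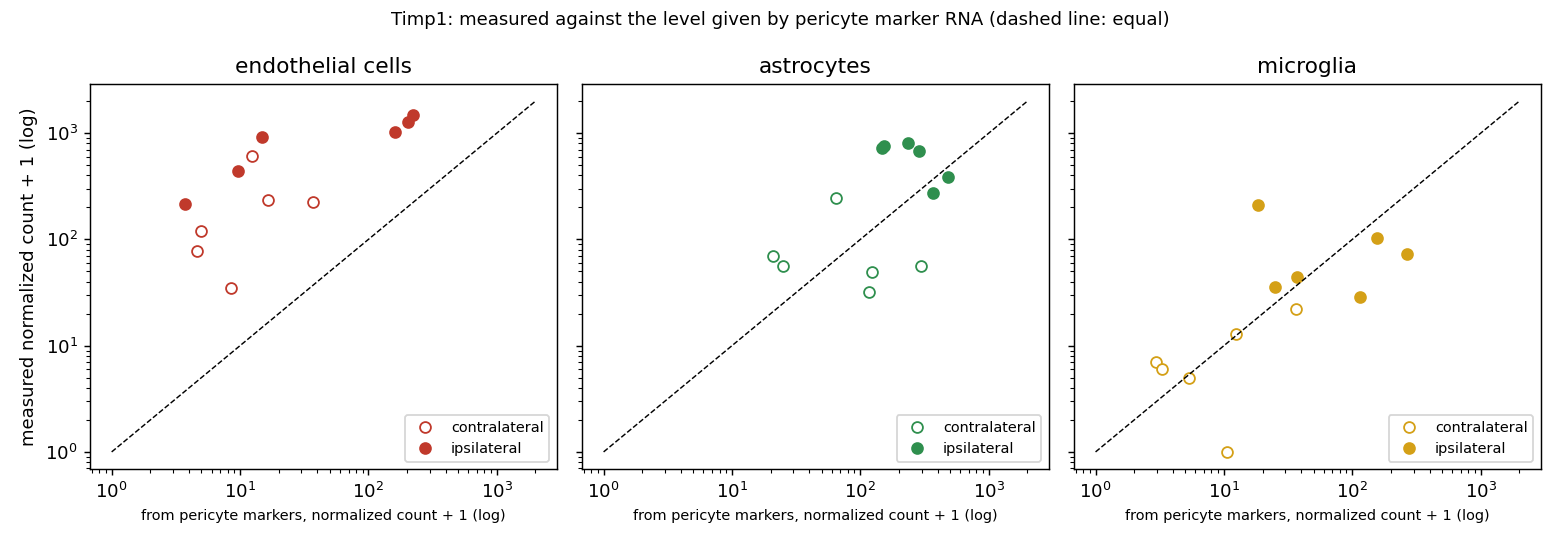
Measured *Timp1* (vertical) against the *Timp1* level given by pericyte marker RNA (horizontal), both as normalized count + 1 on log axes, for each endothelial, astrocyte and microglia library, open for contralateral and filled for ipsilateral, with a dashed line of equality. Endothelial cell libraries all lie above the line, whereas astrocyte and microglia libraries lie on both sides of it. Below the line, the level given exceeds the measured one and so overstates the pericyte RNA there.

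*Timp3*, the matrix-bound member, was at 21090 to 51046 normalized counts in contralateral endothelial cells (median 47348) and at 15094 to 28770 (median 20561) in ipsilateral ones. The groups overlapped through contralateral replicate 2, the lowest of its group. The mean went from 42198 ± 11275 to 21505 ± 5957 (SD, n = 6), a log2 fold change of -0.96 (SE 0.28, 95% confidence interval -1.56 to -0.36, limma adjusted p = 0.158, unadjusted 0.00394). The pair differences ranged from -1.68 to -0.23 on the log2 scale. In replicate 3, with the largest fall, the endothelial markers went from 83661 to 50747. These markers were lower on the ipsilateral side in replicates 1, 3 and 4 and higher in replicates 2, 5 and 6. The part of cell composition in the endothelial *Timp3* fall was not tested.

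In pericytes, *Timp3* was at 22572 to 56351 normalized counts (median 34264) in the contralateral and 7923 to 36357 (median 18676) in the ipsilateral libraries. The log2 fold change was -0.97 (SE 0.38, limma adjusted p = 0.237). In astrocytes it was at 8612 to 15805 and 3825 to 12125, with a log2 fold change of -0.69 (SE 0.28, limma adjusted p = 0.482). The ranges overlapped in both cell types while 6 of 6 pairs were lower in each. The largest falls were in replicates 3 and 4 (-1.84 and -1.76 in PC, -1.16 and -1.21 in AC). In these, pericyte markers went from 72920 to 34142 and 81834 to 34058, and astrocyte markers from 86690 to 49063 and 57129 to 41095. In other replicates these marker sums moved in both directions. The smooth muscle markers of pericytes were lower on the ipsilateral side in each replicate pair. They went from 418650 to 196035 and from 472420 to 179433 in replicates 3 and 4. The part of cell composition in the *Timp3* falls of pericytes and astrocytes, and in that of *Timp4* in astrocytes, was not tested. Fitted with the block, limma gave an adjusted p of 0.134 (EC), 0.0781 (PC) and 0.0634 (AC) for *Timp3*, without a call. In microglia *Timp3* was low, at 254 to 1049 and 154 to 959 normalized counts, with 3 of 6 pairs lower and a log2 fold change of -0.62 (SE 0.45, limma adjusted p = 0.378). Endothelial marker RNA, taken as for *Timp1* and pericytes, gave 39.6% to 120% of the *Timp3* measured in contralateral and 23.8% to 130% of that in ipsilateral microglia.

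*Timp4* was highest in the astrocyte libraries, which also held the oligodendrocyte marker RNA given above. It was at 8592 to 17924 normalized counts (median 9830) in contralateral and 3287 to 11127 (median 7893) in ipsilateral astrocytes. The groups overlapped, 6 of 6 pairs were lower, and the log2 fold change of -0.62 (SE 0.30, 95% confidence interval -1.27 to 0.03) did not pass the test (limma adjusted p = 0.562). With the replicate block the SE was 0.18 and the interval -1.03 to -0.22, again without a call (limma adjusted p = 0.118).

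In pericytes, *Timp4* was at 2847, 3093, 2829, 2578, 255 and 578 normalized counts in the contralateral and 2244, 1844, 1306, 1624, 256 and 344 in the ipsilateral libraries. Replicates 5 and 6 were far below replicates 1 to 4 in both hemispheres. The log2 fold change was -0.60 (SE 0.71, limma adjusted p = 0.732), and -0.72 (SE 0.19, limma adjusted p = 0.139) in replicates 1 to 4 alone. With the replicate block the SE was 0.17 (95% confidence interval -0.98 to -0.22), without a call (limma adjusted p = 0.113). Endothelial cells showed the same split of replicates, with *Timp4* at 19 to 56 in replicates 5 and 6 of both hemispheres, below the 171 to 364 (contralateral) and 68 to 396 (ipsilateral) of the others. Their log2 fold change was -0.22 (95% confidence interval -1.92 to 1.48).

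The astrocyte markers of same-numbered astrocyte libraries gave 0.128% to 13.1% of the *Timp4* measured in pericytes (12 libraries) and 2.85% to 71.4% of that in endothelial cells. In microglia, *Timp4* was at 0 to 180 normalized counts in the contralateral libraries, each below the 313 to 588 that the astrocyte markers give there, and at 5 to 272 in the ipsilateral ones (given: 78.1 to 150), with a log2 fold change of 0.14 (95% confidence interval -2.52 to 2.80).

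*Timp2*, the partner of MMP14 and pro-MMP2, showed no stroke change that passed the test. In microglia it was at 1874 to 9077 normalized counts (median 3716) in contralateral and 2211 to 7264 (median 5269) in ipsilateral libraries, and 4 of 6 pairs were higher. The log2 fold change was 0.14 (SE 0.40, 95% confidence interval -0.71 to 1.00, limma adjusted p = 0.844). In EC, PC and AC it was 0.50 (95% confidence interval -0.58 to 1.59), 0.50 (-0.45 to 1.45) and -0.17 (-1.05 to 0.70). With 4, 4 and 3 of 6 pairs higher, the libraries gave no direction. Microglial marker RNA gave up to 51.5% of the *Timp2* measured in ipsilateral endothelial cells, 78.1% in pericytes and 54.6% in astrocytes, below the measured value in 6 of 6 libraries of each.

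**Figure D3:**
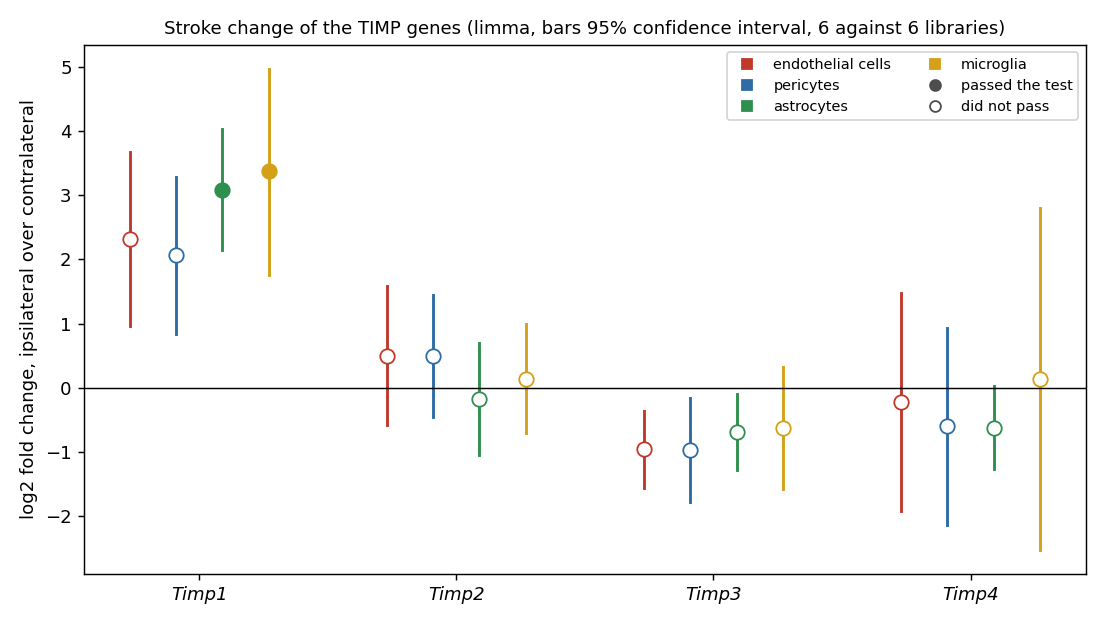
Log2 fold change of ipsilateral over contralateral libraries for each TIMP gene (horizontal) and cell type (colour), with bars for the 95% confidence interval of the limma fit without the block and filled points where the test was passed. *Timp1* lies above 0 in each cell type, between 2.07 and 3.37, and the *Timp3* intervals exclude 0 in endothelial cells, pericytes and astrocytes although the adjusted p did not pass.

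Whether the stroke change of a TIMP gene differed among cell types was tested in 1 fit of 48 libraries. The F-test called 0 of 4 members and 0.66% of all genes, with limma adjusted p of 0.821 for *Timp1*, 0.922 for *Timp2*, 0.971 for *Timp3* and 0.984 for *Timp4*, and unadjusted p of 0.44, 0.722, 0.873 and 0.926. Intervals of the pairwise differences were wide. For *Timp1*, the change in pericytes minus that in microglia was -1.30 on the log2 scale (95% confidence interval -3.14 to 0.53) and that in endothelial cells minus that in pericytes 0.26 (-1.58 to 2.09). For *Timp3*, endothelial cells minus pericytes gave 0.01 (-1.06 to 1.07).

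The pattern of the family in the contralateral hemisphere differed by cell type. Between contralateral groups, 18 of 24 comparisons of a member between a pair of cell types were called (limma on 48 libraries, adjusted p at most 0.05 and at least 1.5-fold), 3 of 4 members in each pair. All genes were called at 34.6% between endothelial cells and pericytes, 49.1% between endothelial cells and astrocytes, 41.6% between endothelial cells and microglia, 45.4% between pericytes and astrocytes, 48% between pericytes and microglia and 50.7% between astrocytes and microglia.

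For *Timp1* the order was pericytes, endothelial cells, astrocytes, microglia. Pericytes exceeded endothelial cells by 3.68 on the log2 scale (SE 0.64, limma adjusted p = 8.39e-06) and astrocytes exceeded microglia by 3.40 (limma adjusted p = 1.65e-05). Endothelial cells and astrocytes, neighbours in the order, differed by 1.16 (95% confidence interval -0.13 to 2.46, limma adjusted p = 0.131). That difference was called in replicates 1 to 4 alone, at 2.13 (limma adjusted p = 0.0128), and without replicate 5, at 1.49 (limma adjusted p = 0.0469), and it was 0.71 without replicate 2.

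For *Timp3*, endothelial cells and pericytes headed the order and differed by 0.18 (95% confidence interval -0.57 to 0.94, limma adjusted p = 0.752). Pericytes exceeded astrocytes by 1.66 (SE 0.37, limma adjusted p = 0.000265), and astrocytes exceeded microglia by 4.32 (limma adjusted p = 2.98e-13).

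For *Timp4* the order was astrocytes, pericytes, endothelial cells, microglia. Astrocytes exceeded pericytes by 2.90 (SE 0.92, limma adjusted p = 0.00853), pericytes exceeded endothelial cells by 3.44 (limma adjusted p = 0.00256), and endothelial cells and microglia differed by 1.63 (95% confidence interval -0.23 to 3.49, limma adjusted p = 0.159). In replicates 1 to 4 alone the last difference was 1.17 and was called (limma adjusted p = 0.033), as it was with the replicate block (limma adjusted p = 0.0434).

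*Timp2* had the flattest pattern, in the order microglia, pericytes, astrocytes, endothelial cells. Microglia and pericytes differed by 0.31 (95% confidence interval of pericytes minus microglia -1.29 to 0.68, limma adjusted p = 0.64), pericytes and astrocytes by 0.80 (limma adjusted p = 0.184), and astrocytes and endothelial cells by 1.16 (limma adjusted p = 0.0442). The last call was lost with the replicate block (limma adjusted p = 0.0534) and in replicates 1 to 4 alone, where endothelial cells minus astrocytes was -0.03. It was also lost without the filter on low values (limma adjusted p = 0.0519), in a fit of contralateral libraries only (0.0705), and without replicate 1 (-1.18), 5 (-0.91) or 6 (-0.51). In replicates 1 to 4 alone, pericytes exceeded astrocytes by 1.59 (limma adjusted p = 0.00906), and the difference was also called without replicate 6 (1.33, limma adjusted p = 0.0202). Astrocytes minus microglia was -1.10 (limma adjusted p = 0.0552) over 6 replicates and was called in replicates 1 to 4 alone (-1.93, limma adjusted p = 0.00157), without replicate 5 or 6 (-1.43 and -1.44), and with a pseudocount of 10 (limma adjusted p = 0.0494).

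Levels of different TIMP genes were compared per kilobase of merged exons (0.888 kb for *Timp1*, 3.90 kb for *Timp2*, 8.14 kb for *Timp3*, 5.89 kb for *Timp4*). The *Timp3* length includes the 1733 bases shared with *Syn3*, whose reads may be missing, so its share may be understated. On that scale, *Timp3* made up 88.9% ± 11.0 (SD, n = 6) of the TIMP sum in contralateral endothelial cells and was the highest member in 6 of 6 libraries. *Timp2* made up 90.9% ± 3.89 in contralateral microglia, *Timp4* 48.3% ± 8.71 in contralateral astrocytes beside 36.1% ± 3.90 for *Timp3*, and contralateral pericytes held 54.3% ± 20.5 *Timp3* and 29.8% ± 19.9 *Timp1*.

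In the ipsilateral hemisphere, the share of *Timp1* per kilobase was 25.2% ± 13.4 in endothelial cells against 5.09% ± 6.51 contralaterally, 66.4% ± 21.7 against 29.8% ± 19.9 in pericytes, 20.1% ± 2.40 against 2.35% ± 1.98 in astrocytes and 6.59% ± 3.78 against 0.779% ± 0.764 in microglia (SD, n = 6). In ipsilateral pericytes *Timp1* was the highest member in 5 of 6 libraries, where contralaterally it was so in 2. The share of *Timp3* in endothelial cells was 65.8% ± 15.9 ipsilaterally, and it stayed the highest member in 6 of 6 libraries. These shares are a description without a test.

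**Figure D4:**
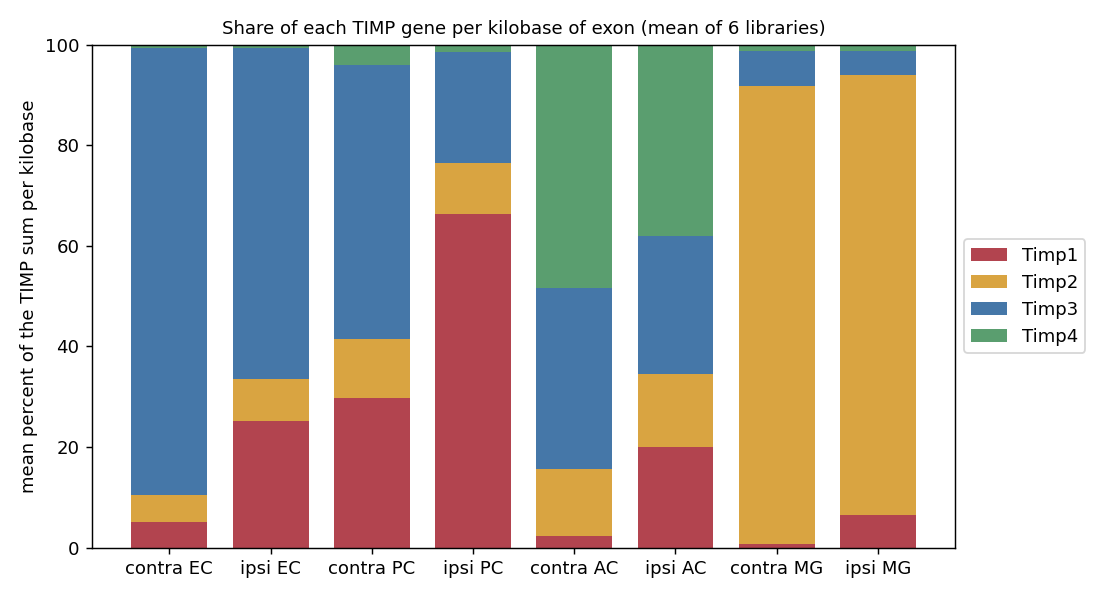
Mean share (percent, 6 libraries per group) of each TIMP gene in the sum of the family per kilobase of exon, for the contralateral (contra) and ipsilateral (ipsi) group of each cell type. Contralateral bars are mostly *Timp3* in EC (88.9%), *Timp3* and *Timp1* in PC, *Timp4* and *Timp3* in AC, and *Timp2* in MG (90.9%), and the *Timp1* segment is larger in each ipsilateral bar.

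The genes whose values over the 48 libraries were most like those of a member, among 15003 genes, are given as a description, since cell type sets most of the variation. *Timp3* was followed most closely, by *Agrn*, the basement membrane proteoglycan agrin, with Pearson's r of 0.963, then *Tgfb2* (0.958), *Crip2* (0.956) and *Dab2ip* (0.955). For *Timp4* they were *Gnao1* (0.927), *Cpe* (0.91), *Plpp3* (0.908), *Lgi3* (0.905) and *Htra1* (0.904). *Timp1* was most like *Pdlim7* (0.868), *Pdlim1* and *Synpo* (both 0.854), *Plp2* (0.852) and *Efemp2* (0.843), and *Timp2* like *2210016F16Rik* (0.803), *P3h2* (0.771), *Itgb5* (0.758), *Dnajc25* (0.755) and *Plxnb2* (0.73). Between members, r ranged from -0.391 (*Timp2* and *Timp3*) to 0.615 (*Timp1* and *Timp3*).

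Among the listed proteases that TIMPs inhibit, each one called was higher on the ipsilateral side. The lists are short, so a share of them rests on 1 or 2 genes. Of 23 metalloproteinase genes listed, 18 were in the table and 12, 14, 14 and 12 were tested in endothelial cells, pericytes, astrocytes and microglia, with 1, 0, 1 and 2 higher and 0 lower. All genes were called higher at 0.362%, 0.441%, 0.334% and 4.29%, and lower at 0.128%, 0.581%, 0.00655% and 6.27% in the same order. *Mmp14*, the membrane-bound activator of pro-MMP2, rose in endothelial cells from 81 to 232 to 320 to 1003 normalized counts, a log2 fold change of 2.10 (SE 0.36, limma adjusted p = 0.0187). *Mmp12*, macrophage elastase, rose in microglia from 6 to 60 to 2213 to 14533 (log2 fold change 7.83, limma adjusted p = 2.81e-06). *Mmp19* rose in astrocytes by 2.34 (limma adjusted p = 0.0466) and in microglia by 3.18 (limma adjusted p = 0.00181). The metalloproteinases tested had a median log2 fold change of 2.14 (EC), 0.79 (PC), 0.07 (AC) and 1.56 (MG). Over all genes it was -0.03, -0.04, -0.06 and -0.18.

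Of the 8 ADAM and ADAMTS genes listed, 5, 8, 7 and 4 were tested and 1, 0, 1 and 0 were higher. All genes were called higher at 0.362%, 0.441%, 0.334% and 4.29% in that order. *Adamts4*, an aggrecanase that TIMP3 inhibits, rose in endothelial cells by 3.69 on the log2 scale (SE 0.67, limma adjusted p = 0.0247). *Adamts1* rose in astrocytes from a median of 1026 to 3317 normalized counts (log2 fold change 1.56, limma adjusted p = 0.0178). Of other inhibitors and binding partners, 9 were tested in each cell type and 1 was called, *Cd63*, a tetraspanin that binds TIMP1 at the cell surface, in microglia (median 10522 to 30351, log2 fold change 1.56, limma adjusted p = 0.00954). There 10.6% of all genes tested were called, so 1 call among 9 is near that share.

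Of 11 listed genes for cytokines and transcription factors known to induce *Timp1*, 10, 11, 11 and 10 were tested and 1, 2, 2 and 2 were higher, with 2 lower in microglia. All genes were called higher at 0.362%, 0.441%, 0.334% and 4.29% in that order, and lower at 6.27% in microglia. *Il6* rose in pericytes from 108 to 450 to 1235 to 5110 normalized counts (log2 fold change 3.50, limma adjusted p = 0.00379), and *Il11* by 5.92 (limma adjusted p = 0.0158) from 0 to 8 to 27 to 548. *Stat3*, the factor downstream of these cytokines, rose in astrocytes from a median of 2986 to 5327 (log2 fold change 0.90, limma adjusted p = 0.0395). *Fosl1*, an AP-1 subunit, rose in endothelial cells by 2.01 (limma adjusted p = 0.0187) and in astrocytes by 3.88 (limma adjusted p = 0.0466). In microglia *Osm* rose by 1.16 (limma adjusted p = 0.00828), while *Jun* fell by 1.70 and *Fos* by 0.86 on the log2 scale (limma adjusted p = 0.0057 and 0.0299). The fourth call in microglia was *Fosl1*, higher. Neutrophil marker RNA was higher on the ipsilateral side in 6 of 6 pairs of each cell type. Its sum was 1 to 1556 normalized counts in contralateral and 78 to 9623 in ipsilateral endothelial cells, 1 to 839 and 210 to 5018 in astrocytes, and 75 to 962 and 1283 to 18104 in microglia, beside the pericyte values given above. Its part in the protease and cytokine values was not tested.

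Of the 3 synapsin genes around the TIMP genes, 1, 2, 3 and 1 passed the filter on low values in the 4 cell types, and 0 were called. All genes were called at 0.491%, 1.02%, 0.341% and 10.6%. *Syn2*, around *Timp4*, was tested in each and had log2 fold changes of -0.60, -0.40, -0.41 and 1.5, with limma adjusted p from 0.38 to 0.91. In contralateral libraries its endothelial minus astrocyte difference was -4.23 (limma adjusted p = 0.00013), where that of *Timp4* was -6.34.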

How the data were processed

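Sorted cells were profiled by SMART-Seq RNA sequencing. Per the labels and the study's methods, the authors trimmed reads (Trimmomatic 0.38), aligned them to GRCm38 (STAR 2.6.1d), counted reads on exons without those overlapping several genes (featureCounts 1.6.3) and normalized with DESeq2 1.18.1. The deposited values are normalized counts rounded to whole numbers, treated as a score and never as raw counts, so the planned log-scale test was used: limma 3.58.1 (R 4.3.3; lmFit, eBayes with trend) on log2(normalized count + 1), two-sided, with Benjamini-Hochberg adjustment over all genes with a mean of at least 10. A fold change on this scale understates that of low genes. The annotation release and strand setting are not given in the sources used here. Exon lengths come from GENCODE M21 and start regions from RefSeq, in which 4 of 4 members matched. Other steps used Python 3.11.15, numpy 2.4.6, pandas 2.3.3 and matplotlib 3.10.9. The fit was tried on simulated astrocyte libraries with large planted changes in genes of higher level. That setting does not cover low genes such as *Timp1* in microglia and vouches for no call given here. Groups followed the column names, with the titles as an alternative. Depth limits low values to a few reads.

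Members and lists were chosen with earlier results of these data known. Named genes were the members, the 5 genes most like each (1 is not reported here), and up to 6 called list genes per cell type. The levels given by pericyte, astrocyte and other marker RNA, and the joint fit with the block, were added after the values were seen. Where such a level exceeded the measured one, it overstated the RNA carried over. No pair among the 48 libraries was identical. The study pooled both hemispheres of the same mice, and equal replicate numbers were taken as the same pool, which no label states outright. Deviations from the group mean had a mean correlation of 0.23, 0.23, 0.38 and 0.14 between same-numbered libraries in EC, PC, AC and MG. The lowest single same-numbered pairs were at 0.01, -0.07, 0.02 and -0.03. For other numbers the mean was -0.04, -0.04, -0.08 and -0.03. Deviations from a group mean cancel out within the group, so these values largely follow from the same-number ones and are no independent comparison. Whether shared pools or the split of replicates described for *Timp4* gave the same-number correlation was not tested.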

Additional observations from a re-analysis of the deposited data

Results flagged for a closer look

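In 2 of 32 groups of 6 libraries of a TIMP gene, a single library stood apart from the others by Dixon's criterion, a number close to what chance gives, about 1 in 20 groups. *Timp1* of contralateral endothelial cells was 612 normalized counts in replicate 2, with the next library at 236. *Timp1* of contralateral astrocytes was 245 in replicate 6, with the next library at 69. Both lie in the control group of a *Timp1* comparison. Without replicate 2 the endothelial log2 fold change was 2.64 in place of 2.32, and without replicate 6 that of astrocytes was 3.36 in place of 3.08.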

How the results depend on the processing

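The number of TIMP genes called for a stroke change depended on the replicate block, with 1 in place of 0 in endothelial cells and 1 in place of 0 in pericytes, *Timp1* in both. It was also 1 in endothelial cells in a joint fit of 48 libraries, and 1 in endothelial cells and in pericytes in that fit with the block. Leaving out 1 replicate gave 0 to 1 in astrocytes and 0 to 1 in microglia, and replicates 1 to 4 alone gave 0 in microglia. A mean of at least 50 gave 0 there, because *Timp1* was no longer tested. With the cell types of the sample titles, 3 were called in pericytes, 3 in microglia and 3 by the F-test, *Timp1* was at -4.88 in pericytes, and *Timp3* at 5.01 in microglia. The sign also turned for *Timp2* in replicates 1 to 4 alone (-0.10 in endothelial cells, -0.08 in pericytes, -0.53 in microglia) and, leaving out a replicate, in microglia (-0.21 to 0.55), for *Timp4* in endothelial cells (-0.51 to 0.22) and microglia (-0.43 to 0.61), and in microglia with a pseudocount of 10 (-0.07). The causes were not tested. The replicate block changed no other stroke call; in the contralateral levels it ended that of *Timp2* between endothelial cells and astrocytes and made that of *Timp4* between endothelial cells and microglia (adjusted p = 0.0434, limma). Depth limits *Timp1* and *Timp4* in microglia, where several values lie near the worth of 3 reads.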
